A study of Mus musculus with 6 samples.

Results

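The genes described here are the glucocorticoid receptor Nr3c1, the enzyme that regenerates its ligand, Hsd11b1, and 8 genes known to respond to it (Fkbp5, Tsc22d3, Zbtb16, Sgk1, Ddit4, Cebpb, Cebpd and Errfi1). They were chosen by name, as the non-control spots whose gene name in the array files equals one of these symbols. The 10 genes have 11 of the 55681 probes of the array, on 20 spots, and all 10 passed the filter on dim probes that left 21888 genes for testing. Their RNA came from cardiomyocytes of mice that carried an H19 knockout and of wild-type littermates, 3 arrays per genotype. All of these adult mice had undergone transverse aortic constriction (TAC), a surgical narrowing of the aortic arch that makes the left ventricle work against a raised pressure, and the cells were freed 6 weeks later by perfusing the heart in reverse. H19 is a maternally expressed, imprinted RNA that encodes no protein. The age, sex and strain of the mice, and the part of H19 that the knockout allele lacks, are not given in the sources used here. Hearts without the operation were not analysed here, so all differences compare genotypes in pressure-loaded hearts.

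Glucocorticoids such as corticosterone cross the cell membrane and bind the glucocorticoid receptor, which waits in the cytoplasm in a complex with Hsp90, p23 and immunophilins. The bound receptor moves to the nucleus and, as a dimer, binds a palindromic DNA element, the glucocorticoid response element, near genes that it activates. Fkbp5, Tsc22d3, Zbtb16 and Per1 are widely used as readouts of receptor activity, and Fkbp5 closes a loop by lowering the receptor's affinity for its ligand. In cardiomyocytes the receptor is the main corticosteroid receptor and is needed for normal contractile function.

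The proximal promoters were searched for an exact form of such an element close to a start site. RefSeq sequences (GRCm38.p6) were at hand for 15 start-site windows of 7 of the genes, and for none of Nr3c1, Zbtb16 and Cebpd. The 250 bases before each start site were searched on both strands. The full palindrome, AGAACA and TGTTCT with any 3 bases between them, was found in 3 of all 32851 windows (0.00913%), and 1 of these belongs to Sgk1. It lies at -189 to -175 from 1 of the 6 Sgk1 start sites, and which of these start sites the array probe reports on was not analysed here. The hexamer AGAACA alone, which the full palindrome also contains, was found in 16.1% of all windows, in 4 of the 15 windows of these genes, and in 2 genes, Sgk1 and Tsc22d3. The cyclic AMP response element TGACGTCA, which was looked for after the array values were known, was found in 1.55% of all windows. Of these 15 windows 1 held it, 1 of the 2 of Errfi1, at -51 to -44 from that start site. The Sgk1 window with the full palindrome and the Errfi1 window with TGACGTCA are shown. They were picked because of these genes Sgk1 alone held the full receptor element in a window searched, and Errfi1 is the gene whose arrays separated by genotype. The capitals mark the element, and both are on the plus strand, at chr10:21993640-21993889 for Sgk1 and chr4:150854820-150855069 for Errfi1.
Sgk1: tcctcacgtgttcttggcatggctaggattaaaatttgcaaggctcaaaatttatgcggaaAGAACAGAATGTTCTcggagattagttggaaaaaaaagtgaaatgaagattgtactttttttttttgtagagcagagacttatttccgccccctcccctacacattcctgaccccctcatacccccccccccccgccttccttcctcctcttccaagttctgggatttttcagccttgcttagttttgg
Errfi1: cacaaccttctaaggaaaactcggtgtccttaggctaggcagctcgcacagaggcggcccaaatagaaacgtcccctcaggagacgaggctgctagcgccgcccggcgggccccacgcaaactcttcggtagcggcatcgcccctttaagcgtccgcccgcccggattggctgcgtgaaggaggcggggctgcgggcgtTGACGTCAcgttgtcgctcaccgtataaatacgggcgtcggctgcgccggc
A match is a run of letters, not a shown binding site. The search covered exact letters and 250 bases only, so a gene without a match may still have a receptor element.

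Levels are log2 of the spot signal over the 75th percentile of all probes on that array, so a level of 0 is that percentile and a difference of 1 is a doubling. The share of spots well above background was 48.8% to 58.6%, and none was saturated. Slide 1 carried the replicates numbered 1 and slide 2 those numbered 2 and 3, so each slide gives its own difference, from 1 array against 1 and from 2 against 2. H19 was 1.09 ± 0.52 in wild type and -6.01 ± 0.37 in knockout (SD, n = 3 each), well above background on the 3 wild-type arrays only. All 10 cardiomyocyte markers were well above background on all 6 arrays. So were 10 of 10 fibroblast, 10 of 10 endothelial, 8 of 8 smooth muscle and pericyte and 9 of 10 macrophage markers. The same held for 3 of 6 adipocyte, 3 of 8 lymphocyte and 2 of 5 red cell markers. The remaining ones include Cd163, Lep and Ms4a1, which reached that level on 0 of 6 arrays. The summed level of 10 cardiomyocyte markers was 2806 to 2956 in wild type and 2466 to 2829 in knockout, that of 10 fibroblast markers was 217 to 417 and 328 to 653, and that of 9 macrophage markers was 61.0 to 83.6 and 38.2 to 81.7 (in units of that percentile). These sums compare the arrays for 1 list and do not rank the lists. Because the RNA is of whole preparations, fewer cells of a type and less RNA per cell cannot be told apart. Whether an array stands for 1 mouse is not stated in the labels. The p-values therefore refer to the spread between these 6 samples, which may be technical in part, and their number limits the precision.

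The receptor and most of its response genes stood at like levels in both genotypes, and Errfi1 was the one gene whose knockout arrays all lay above the wild-type arrays. None of the 10 genes passed an adjusted p of 0.05 (limma with Benjamini-Hochberg adjustment over all genes), where 0.0365% of all genes tested did (0.00914% higher and 0.0274% lower in knockout). None of the 11 probes passed either, against 0.0467% of all probes tested. At an unadjusted p under 0.05 (limma), 1 of the 10 genes was higher in knockout, against 1.06% of all genes, and 0 were lower, against 6.86%. The genotypes did not overlap for 1 of the 10 genes, against 10.5% of all genes (2.1% with all knockout arrays above and 8.37% with all below), so that count is at the background. Of the 10 differences (knockout minus wild type), 9 were positive, with a median of 0.16, where 39.9% of all genes were positive and the median of all genes was -0.05. These all-gene values include dim genes, while all 10 genes were well above background on all 6 arrays. The all-gene median was -0.02 when only genes that bright were kept, and -0.17 with no filter on dim probes. When each array was scaled to its median probe all 10 were positive, with a median of 0.58, and that scaling moved the median of all genes to 0.37. With array weights 7 were positive. Leaving out 1 array gave from 6 positive (without wild-type replicate 3) to 9 (without wild-type replicate 2 or knockout replicate 1). For 8 of the 10 genes the difference was smaller than the pooled SD within genotypes, and for 7 the 95% interval of the difference lay within a 2-fold change in either direction. The exceptions were Zbtb16, Hsd11b1 and Errfi1.

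**Figure D1:**
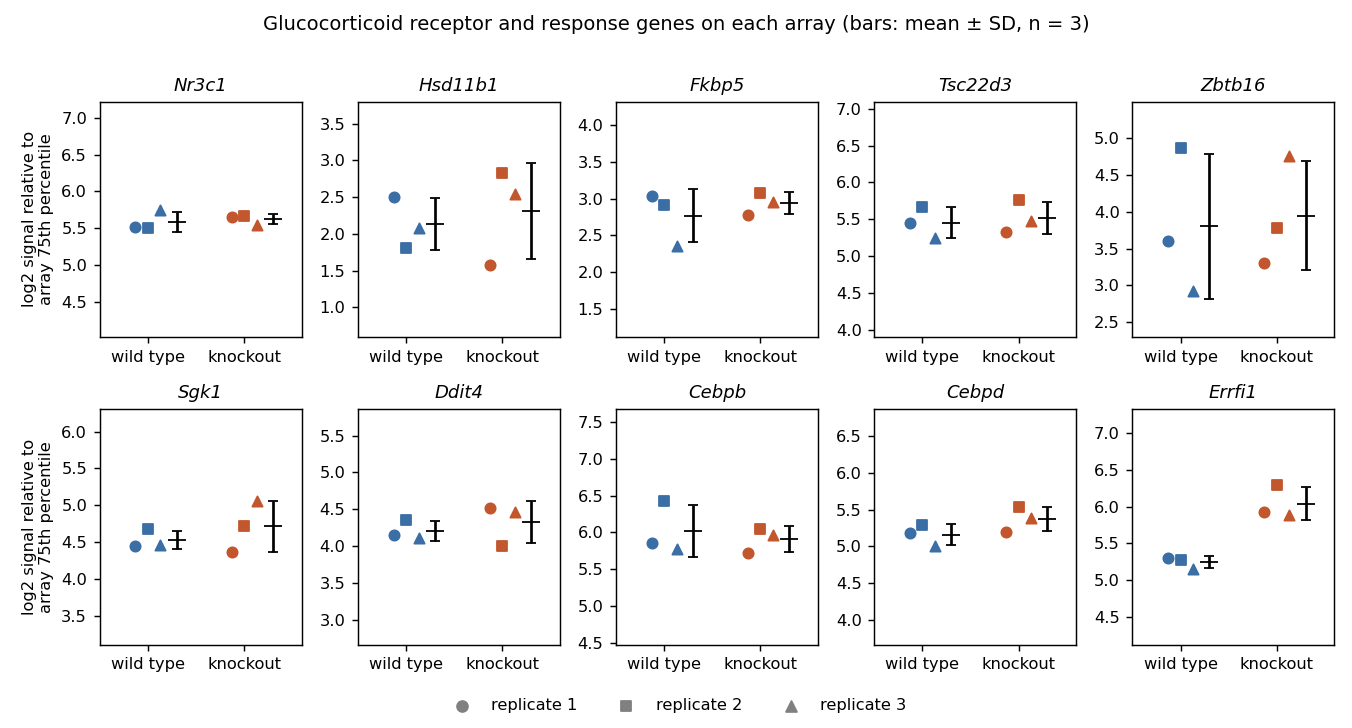
Level of each of the 10 genes on each array (vertical axis, log2 signal over that array's 75th percentile, 3.2 log2 units high in every panel), with wild type and knockout side by side, marker shape for the replicate number and bars for mean ± SD (n = 3). The 3 Errfi1 knockout points all lie above its wild-type points, Zbtb16 spreads over 1.95 log2 units within the set of 6, and Nr3c1 over 0.25.

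The receptor itself varied little. Nr3c1 encodes the glucocorticoid receptor and has 2 probes. The brighter one, at chromosome 18, 39571641 to 39571700 (mm9), read 5.52, 5.50 and 5.75 in wild type and 5.65, 5.67 and 5.54 in knockout. The arrays of the genotypes overlapped, and the highest and lowest of the 6 were both wild type. The difference was 0.03 (SE 0.15, 95% interval -0.32 to 0.38, adjusted p = 0.9996). The pooled SD within genotypes, 0.11, was lower than that of all but 7.63% of the genes tested. The dimmer probe, at 39574183 to 39574242, read -1.72 ± 0.18 and -1.53 ± 0.07 (SD, n = 3 each) and differed by 0.19 (SE 0.16), so both Nr3c1 probes gave small positive values.

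Hsd11b1 encodes 11-beta-hydroxysteroid dehydrogenase type 1, which turns inactive 11-dehydrocorticosterone back into corticosterone inside the cell. Its probe (chromosome 1, 195048169 to 195048228, mm9) is printed on 10 spots, the most of these genes. Within an array these spots had an SD of 0.03 to 0.07, smaller than the SD between arrays of a genotype (0.35 and 0.66). It read 2.51, 1.81 and 2.08 in wild type and 1.57, 2.82 and 2.54 in knockout. The lowest and the highest array were both knockout. The difference was 0.18 (SE 0.35, interval -0.65 to 1.01, adjusted p = 0.9996), with -0.93 on slide 1 and 0.74 on slide 2. Leaving out knockout replicate 2 turned it to -0.074. That array was also highest for the fibroblast markers, of which 10 of 10 had a positive difference. The slides differed, with a median difference of these markers of -0.54 on slide 1 and 1.29 on slide 2. The mean deviation of the fibroblast markers from their average over the 6 arrays was 1.12 in knockout replicate 2. It was -0.27 in knockout replicate 1, the lowest Hsd11b1 array, 0.11 in knockout replicate 3, and 0.26, -0.43 and -0.80 in the wild-type arrays. The 3 red cell markers tested of 5 deviated by 2.45, -1.18 and -1.56 in wild type and -2.39, 3.13 and -0.46 in knockout, so the lowest and highest arrays were again knockout replicates 1 and 2. The 4 adipocyte markers tested of 6 ran the other way in knockout, at 0.88 in replicate 1 and -0.81 in replicate 2, with a summed level of 0.666 to 2.97 in wild type and 0.876 to 2.74 in knockout. The part of these cells in the Hsd11b1 values was not tested.

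The 3 genes most used as readouts of receptor activity overlapped between the genotypes. Fkbp5 encodes the Hsp90 co-chaperone FKBP51, which holds the receptor in a state of low affinity (probe at chromosome 17, 28536060 to 28536119). Its levels were 3.03, 2.91 and 2.36 in wild type and 2.78, 3.08 and 2.96 in knockout. The knockout arrays lay close together, and wild-type replicate 3 lay below the other 5. The difference was 0.17 (SE 0.21, interval -0.34 to 0.68, adjusted p = 0.9996), at -0.25 on slide 1 and 0.38 on slide 2. Leaving out wild-type replicate 3 turned it to -0.034.

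Tsc22d3 encodes GILZ, a leucine zipper protein that carries part of the anti-inflammatory action of glucocorticoids (probe at chromosome X, 137074094 to 137074153). It read 5.44, 5.66 and 5.24 in wild type and 5.32, 5.76 and 5.48 in knockout. Each genotype had an array near the top and one near the bottom of this range. The difference was 0.07 (SE 0.19, interval -0.37 to 0.51, adjusted p = 0.9996), an interval of 0.772 to 1.42-fold, with -0.12 on slide 1 and 0.16 on slide 2.

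Zbtb16 encodes PLZF, a zinc finger repressor that is strongly induced by glucocorticoids in many cell types. It was the most variable of the 10 genes, at 3.61, 4.87 and 2.92 in wild type and 3.30, 3.78 and 4.76 in knockout, a 3.86-fold range. Both genotypes had a high array, wild-type replicate 2 and knockout replicate 3, and a low one, wild-type replicate 3 and knockout replicate 1. The pooled SD within genotypes was 0.87, larger than that of 97.8% of the genes tested. The difference was 0.14 (SE 0.56, interval -1.17 to 1.46, adjusted p = 0.9996), or 0.443 to 2.76-fold, which includes a change of 2-fold either way. The slides gave -0.31 (slide 1) and 0.37 (slide 2), and leaving out 1 array gave -0.29 to 0.68. The probe lies on chromosome 9, 48462419 to 48462478 (mm9).

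Profiles over the 6 arrays were compared with that of Zbtb16 by root-mean-square distance, each centred on its mean. Among genes with established symbols, the nearest were Erich4, Slc10a6 (0.21 log2 units) and Il2ra (0.22). Slc10a6 encodes a transporter of sulphated steroids, and Il2ra a subunit of the interleukin-2 receptor. Slc10a6 read -0.21, 0.73 and -0.67 in wild type and -0.29, 0.26 and 0.96 in knockout. As for Zbtb16, its highest wild-type array was replicate 2 and its highest knockout array replicate 3. Erich4 (0.17) was well above background on 3 of the 6 arrays, so its place rests partly on values that are not. The distances rest on 6 arrays and describe likeness of levels alone.

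**Figure D2:**
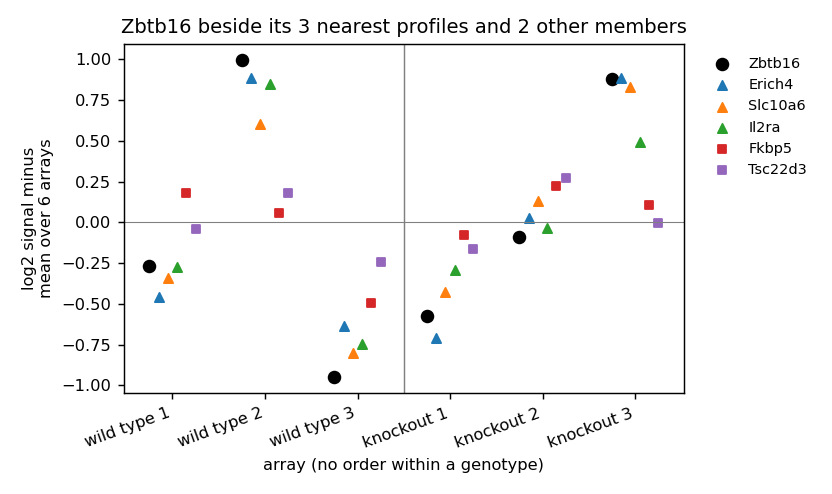
Level on each array of Zbtb16, of its 3 nearest profiles among genes with established symbols (Erich4, Slc10a6, Il2ra) and of Fkbp5 and Tsc22d3. The vertical axis is log2 signal minus the gene's mean over the 6 arrays. Points are single arrays, shifted sideways for clarity. Zbtb16 lies at 0.998 in wild-type replicate 2 and 0.88 in knockout replicate 3, where Fkbp5 lies at 0.06 and 0.11.

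Sgk1 and Ddit4 encode receptor targets that act on growth and metabolism. Sgk1 is a serum- and glucocorticoid-induced kinase that regulates ion channels and transporters and acts beside Akt. It read 4.45, 4.67 and 4.45 in wild type and 4.36, 4.72 and 5.05 in knockout. Knockout replicate 3 was the highest of the 6, and knockout replicate 1 the lowest. The difference was 0.18 (SE 0.21, interval -0.31 to 0.68, adjusted p = 0.984), at -0.09 on slide 1 and 0.32 on slide 2. The Sgk1 probe lies on chromosome 10, 21719507 to 21719566 (mm9).

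Ddit4 encodes REDD1, an inhibitor of mTORC1 that is induced by glucocorticoids, hypoxia and energy stress (probe at chromosome 10, 59412486 to 59412545). Its levels were 4.14, 4.36 and 4.11 in wild type and 4.52, 4.001 and 4.46 in knockout. The lowest of the 6 arrays, knockout replicate 2, and the highest, knockout replicate 1, were of the same genotype. The difference was 0.12 (SE 0.19, interval -0.33 to 0.57, adjusted p = 0.9996), with 0.38 on slide 1 and -0.0036 on slide 2.

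Cebpb and Cebpd encode basic leucine zipper transcription factors of the CCAAT/enhancer binding family, which glucocorticoids, cytokines and cell stress induce. Cebpb (probe at chromosome 2, 167515828 to 167515887) read 5.85, 6.43 and 5.78 in wild type and 5.72, 6.05 and 5.96 in knockout. Wild-type replicate 2 stood above the other 5 arrays. It was the only one of the 10 genes with a negative difference, -0.11 (SE 0.22, interval -0.63 to 0.40, adjusted p = 0.9996), and the value was 0.31 when arrays were scaled to their median probe. Cebpd (chromosome 16, 15888459 to 15888518) read 5.18, 5.29 and 5.001 in wild type and 5.19, 5.53 and 5.39 in knockout. Its lowest knockout array lay between the wild-type arrays, and the other two lay above them. The difference was 0.21 (SE 0.16, interval -0.17 to 0.60, adjusted p = 0.852), at 0.01 on slide 1 and 0.31 on slide 2.

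Errfi1 encodes MIG6, a feedback inhibitor of the EGF and ErbB receptors that is induced quickly by growth factors, stress and glucocorticoids. It read 5.30, 5.28 and 5.15 in wild type and 5.92, 6.30 and 5.89 in knockout. Every knockout array lay above every wild-type array, as was so for 2.1% of all genes. The wild-type arrays lay close together, with an SD of 0.08 against 0.22 in knockout. The difference was 0.79 (SE 0.17, 95% interval 0.40 to 1.19), or 1.73-fold, with an unadjusted p of 0.00216 and an adjusted p of 0.614 (limma), so it did not pass over all genes. Its alternatives gave adjusted p-values from 0.0779 (array weights) to 0.9999. With array weights the difference was 0.70, and 4552 of all genes had an unadjusted p under 0.05 (limma), against 1734 in the main fit. In the main fit 1.06% of all genes were higher and 6.86% lower in knockout at that threshold. The value was 0.62 on slide 1 and 0.88 on slide 2, and it lay between 0.66 and 0.87 when any 1 array was left out. With slide as a block the adjusted p was 0.528. The probe lies on chromosome 4, 150242886 to 150242945 (mm9).

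Immediate early genes, which tissue handling and many stimuli also induce, had positive differences on the same arrays. All 16 that were tested of 18 listed were positive, where 39.9% of all genes were, with a median of 0.76 against -0.05. In 8 the knockout arrays lay above all wild-type arrays, against 2.1% of all genes. None passed over all genes (limma), and 8 were higher at an unadjusted p under 0.05, against 1.06% of all genes. This list too was chosen with earlier results of these arrays known, so its counts describe the arrays and do not test enrichment. Slide 1 alone gave 1.15 as the median difference of the list, where slide 2 gave 0.47. The smallest p were those of Klf4 (0.80, SE 0.16), Hspa1a (1.62, SE 0.37), Egr2 (2.17, SE 0.53) and Fosb (1.13, SE 0.30). Hspa1a is an inducible Hsp70 gene that was listed and counted with the immediate early genes. The mean deviation of the 16 genes was -0.64, -0.62 and 0.07 in wild type and 0.55, 0.36 and 0.28 in knockout. Their summed level was 387 to 691 and 672 to 835. Wild-type replicate 3 was the wild-type array nearest to the knockout arrays. For Errfi1 the same array was the lowest of the 6, at -0.49. Leaving out wild-type replicate 3 gave an Errfi1 difference of 0.75 (limma, unadjusted p = 0.00736, adjusted p = 0.0845). The unadjusted p was thus larger than with all arrays (0.00216). The adjusted p was smaller in a setting where 3991 of all genes had an unadjusted p under 0.05, against 1734 with all arrays. Knockout replicate 2, the array with the highest Errfi1 level, was also the highest for fibroblast markers (1.12), and without it the difference was 0.66 (adjusted p = 0.749). The part of handling or of fibroblasts in the Errfi1 value was not tested.

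**Figure D3:**
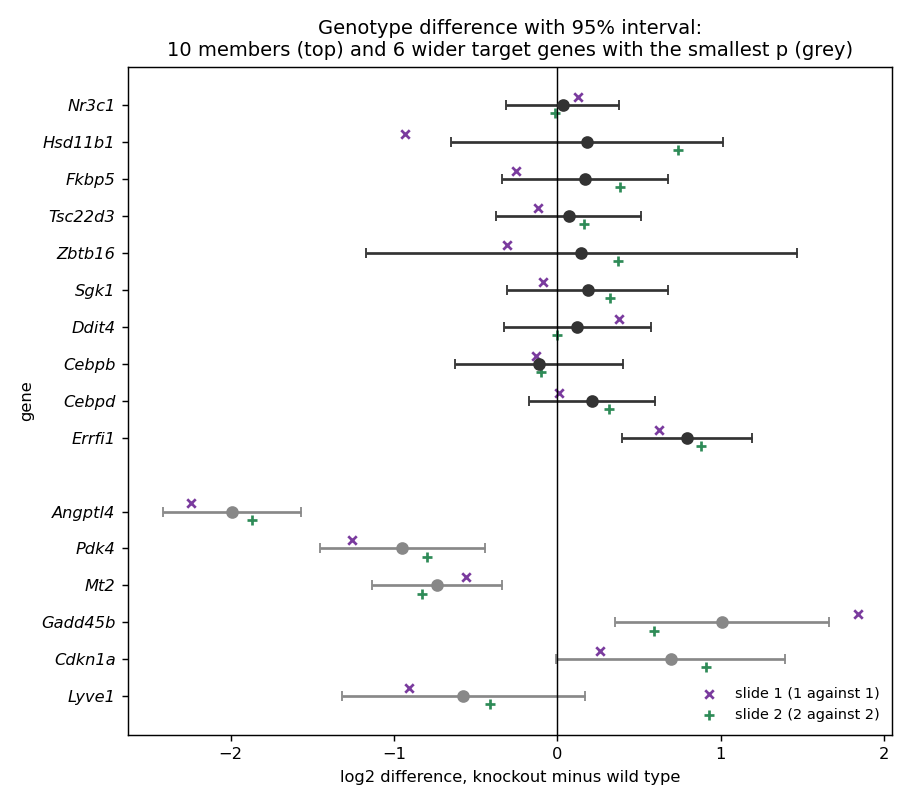
Log2 difference, knockout minus wild type (horizontal axis), of the 10 genes (black) and of the 6 wider target genes with the smallest p (grey), with 95% intervals from limma; crosses give slide 1 (1 array against 1) and plus signs slide 2 (2 against 2). Of the 10 genes only the interval of Errfi1 (0.40 to 1.19) does not reach 0, and Angptl4 lies farthest to the left, at -1.99.

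The receptor's partners showed small values. Of 9 listed genes for its chaperones and for ligand metabolism, 8 were tested and 0 passed (limma; 0 at an unadjusted p under 0.05), with differences from -0.34 to 0.33 and a median of 0.03. Hsp90aa1, the inducible Hsp90 that holds the receptor ready for ligand, had 0.33 (SE 0.20), at 0.86 on slide 1 and 0.07 on slide 2. Nr3c2, the mineralocorticoid receptor, which also binds corticosterone, had -0.34 (SE 0.24). The chaperone Hspa8 had 0.10 (SE 0.14) and Ptges3, which encodes p23, -0.08 (SE 0.17). Hsd11b2, the enzyme that inactivates corticosterone, was too dim to test (well above background on 1 of 6 arrays). The 10 coregulators gave a median of 0.03 and a range of -0.16 to 0.10, with 0 passing (0 at an unadjusted p under 0.05). Among these were the corepressor genes Nrip1 (-0.16, SE 0.18) and Ncor1 (0.10, SE 0.17), and the acetyltransferase gene Crebbp (0.06, SE 0.14).

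Among 30 further genes known as receptor targets in some tissue, 1 passed and it fell, where 0.0274% of all genes did so, and the differences were evenly split, 15 positive and 15 negative with a median of -0.0018. The list was drawn up with earlier results of these arrays known, so its counts are a description. Angptl4, a secreted inhibitor of lipoprotein lipase that fasting and glucocorticoids induce, read 2.03, 2.08 and 1.73 in wild type and -0.21, 0.18 and -0.11 in knockout. The genotypes were far apart, with a difference of -1.99 (SE 0.18, adjusted p = 0.0433), at -2.24 on slide 1 and -1.87 on slide 2. Angptl4 lost the call with slide as a block (adjusted p = 0.123) and without any 1 of the 6 arrays (lowest adjusted p = 0.0506), while its difference stayed at -1.99 with the block and between -2.11 and -1.91 with 1 array left out. Pdk4, a kinase that shuts off pyruvate dehydrogenase, read 7.03, 6.34 and 6.44 in wild type and 5.77, 5.61 and 5.58 in knockout, a difference of -0.95 (SE 0.21, adjusted p = 0.614). The metallothionein gene Mt2 read 5.69, 6.10 and 5.69 in wild type and 5.13, 5.09 and 5.03 in knockout, a difference of -0.74 (SE 0.17, adjusted p = 0.614). Gadd45b, a stress-inducible gene, had 1.01 (SE 0.28, adjusted p = 0.614), with 1.84 on slide 1 and 0.59 on slide 2. In 5 of these 30 genes the arrays of the genotypes did not overlap (Cdkn1a was the other one, at 0.69, SE 0.30), where the share of all genes was 10.5%. Per1 and Klf9, both direct targets of the receptor, were at 0.65 (SE 0.43) and -0.0068 (SE 0.24), and Klf15, the cardiac target that limits hypertrophy, at 0.03 (SE 0.38).

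Genes listed as relatives of the response genes are also on the array. Of 5 other genes listed under the CCAAT/enhancer binding family 4 were tested and 0 passed (limma). At an unadjusted p under 0.05, 1 was higher in knockout, against 1.06% of all genes, and 0 were lower, against 6.86%. Ddit3, the stress-induced dominant-negative member CHOP, had 0.60 (SE 0.20, adjusted p = 0.614) with all knockout arrays above the wild-type arrays. Cebpa had 0.49 (SE 0.31) and Cebpg -0.04 (SE 0.20). Cebpz, which is grouped here by its name alone, had -0.12 (SE 0.21). Of 10 relatives of Tsc22d3, Sgk1, Ddit4, Fkbp5 and Zbtb16, 8 were tested and 0 passed (0 at an unadjusted p under 0.05), with a range from -0.08 for Zbtb7a to 0.31 for Ddit4l and a median of 0.08. Fkbp1a, the immunophilin FKBP12, had 0.09 (SE 0.15) and Fkbp2 0.10 (SE 0.19).

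The same few arrays were the highest or lowest for several of the genes. Wild-type replicate 3 was the lowest of the 6 arrays for 5 of the 10 genes (Fkbp5, Tsc22d3, Zbtb16, Cebpd and Errfi1), where it was lowest for 13.3% of all genes. Knockout replicate 2 was the highest for 5 of the 10 (Fkbp5, Tsc22d3, Hsd11b1, Cebpd and Errfi1), where it was highest for 13.9% of all genes. Averaged over the 10 genes, the deviation was -0.08, 0.10 and -0.29 in wild type and -0.15, 0.19 and 0.22 in knockout. Wild-type replicate 3 and knockout replicate 1 were the low arrays, one of each genotype. Fibroblast and endothelial markers were below their average on both, at -0.80 and -0.30 in wild-type replicate 3 and -0.27 and -0.33 in knockout replicate 1, and cardiomyocyte markers were at 0.05 and 0.07. Smooth muscle and pericyte markers were also low on both arrays (-0.69 and -0.35). So were the 4 lymphocyte markers tested (-1.08 and -0.48) and the 3 red cell markers tested (-1.56 and -2.39). The smooth muscle and pericyte list shared the sign of the 10 genes in wild-type replicate 2 (0.35) and knockout replicate 2 (0.48). It had the other sign in wild-type replicate 1 (0.35) and knockout replicate 3 (-0.15). The lists did not all move with the genes. Fibroblast markers were also low in wild-type replicate 2 (-0.43), where the 10 genes were at 0.10, and macrophage markers were at 0.56 in wild-type replicate 3 and -0.66 in knockout replicate 1. The part of these cells in the response genes was not tested. The sign of the difference was positive for 4 of 10 genes on slide 1 and for 7 of 10 on slide 2, and it differed between the slides for 7 of them. The exceptions were Cebpb, Cebpd and Errfi1.

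**Figure D4:**
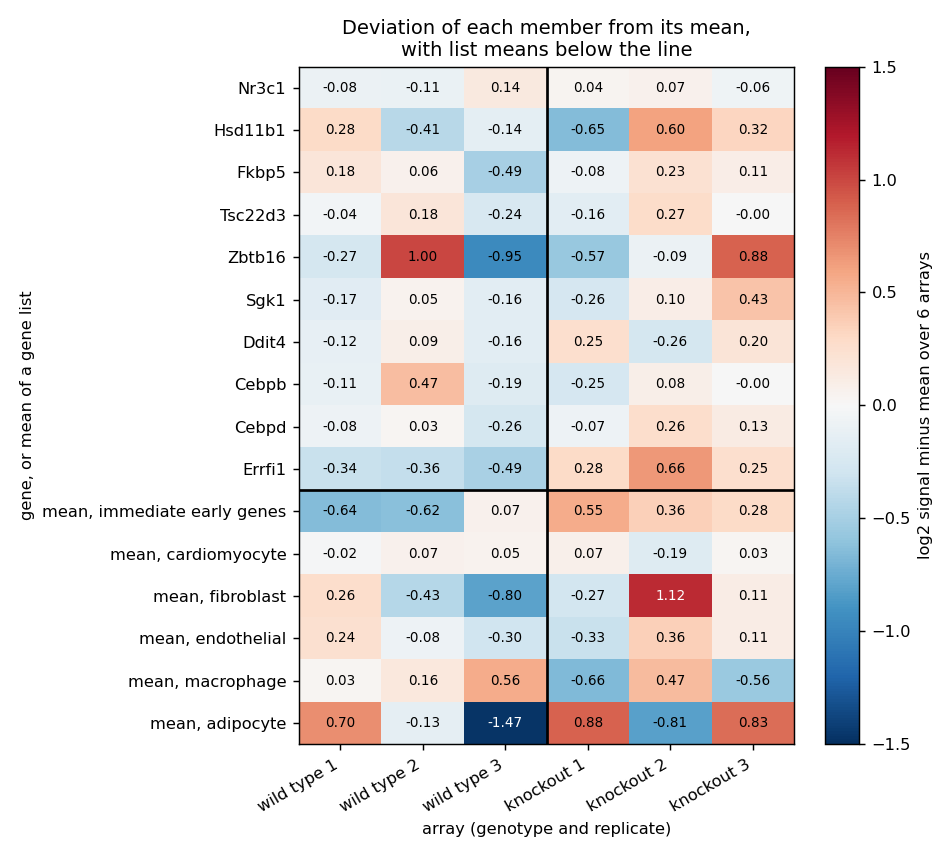
Deviation of each of the 10 genes from its own mean over the 6 arrays (log2, colour and printed value), with the mean deviation of 6 gene lists below the line; columns are arrays, wild type to the left. Errfi1 is positive in all 3 knockout columns and negative in all 3 wild-type columns, while Zbtb16 ranges from -0.95 in wild-type replicate 3 to 0.998 in wild-type replicate 2.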

How the data were processed

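Cardiomyocyte RNA of H19 knockout and wild-type mice was hybridised to 1-colour Agilent arrays, 3 per genotype. Per the file headers, Agilent Feature Extraction 10.7.3.1 gave each spot a background-subtracted, detrended intensity, not normalized between arrays, with mm9 coordinates. The authors' deposited value table holds a linear intensity with 1 median (69.7) in all columns and was used as an alternative.

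Log2 intensity was averaged over a probe's usable spots, and the array's 75th percentile over probes was subtracted. Control and outlier spots were left out, as were 32 probes that lacked a usable spot on some array. A probe was kept if at least 3 of 6 arrays showed it well above background (29990 were), and the probe with the highest mean stood for each of 21888 genes. Genotypes were compared with limma 3.58.1 (R 4.3.3), adjusted by Benjamini-Hochberg over all genes; the procedure was tested on simulated data. Names came from a RefSeq table of GRCm38.p6 (26419 probes by accession, 3993 by symbol, 826 by synonym, 24443 kept). An exact permutation test of 3 against 3 cannot give a p under 0.10.

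All 10 genes are reported, then the 4 genes with the smallest p of each further list, where some values are not reported here; Cdkn1a, Per1, Klf9 and Klf15 were named beyond this rule, after their values were seen. The genes and lists were chosen with earlier results of these data known. Alternatives were other background corrections, scalings, filters, blocks, priors, weights (gene by gene, since the default did not converge) and leaving out each array.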

Additional observations from a re-analysis of the deposited data

How the results depend on the processing

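No gene of the 10, and no probe of the 11, passed under any of the alternatives run. Values of single genes changed sign as follows. When arrays were scaled to their median probe Cebpb was at 0.31, and with array weights Tsc22d3 was at -0.088 and Zbtb16 at -0.15. Leaving out 1 array gave ranges of -0.012 to 0.11 for Nr3c1, -0.034 to 0.30 for Fkbp5, -0.049 to 0.18 for Tsc22d3, -0.29 to 0.68 for Zbtb16, -0.074 to 0.55 for Hsd11b1 and -0.23 to 0.095 for Cebpb. Sgk1 (0.01 to 0.36), Ddit4 (0.03 to 0.29), Cebpd (0.13 to 0.30) and Errfi1 (0.66 to 0.87) kept their sign. The count of other pathway genes that passed, 1 (Angptl4), became 0 with quantile normalization, the authors' deposited values, no filter on dim probes, the replicate block, slide as a block, and 0 to 0 without any 1 array; when arrays were scaled to their median probe it was 4 (Angptl4, Egr2, Fosb and Hspa1a), and the cause was not tested. Over all genes 8 passed, against 3 with quantile normalization or the authors' values, 119 with scaling to the median, and 1 with no filter or with either block; leaving out 1 array gave 1 to 4.

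For same-numbered arrays the deviations from the genotype means correlated at -0.22, -0.05 and 0.04 over genes. Differently numbered arrays gave -0.27 to 0.33. With 3 arrays per genotype these values cannot show whether the numbers pair the arrays. With the replicate block 0 of the 10 genes passed, and Errfi1 had an adjusted p of 0.472. The number of arrays, and for dim genes the signal over background, limit what can be detected.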
